A study of Homo sapiens with 6 samples.

Results

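The MCM helicase genes and their licensing partners were followed in ZR-75-1 cells, an oestrogen receptor-positive human breast cancer line, after CDK4/6 inhibition with abemaciclib. The group was set by gene name and holds 10 of the 60656 genes in the count table: the helicase subunits MCM2, MCM3, MCM4, MCM5, MCM6 and MCM7, the late-acting factor MCM10, the loaders CDC6 and CDT1, and GMNN, which encodes geminin. All 10 had enough counts to be tested. RNA came from parental ZR-75-1 cells grown for 4 days with 500 nM abemaciclib or with an equal volume of the solvent DMSO, with 3 libraries in each group, and neither group carried an engineered allele. The study describes its RNA-seq replicates as independent biological replicates, and a single cell line was used.

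Replication licensing is the step in G1 that marks each origin for one round of DNA synthesis. The origin recognition complex, with CDC6 and CDT1, loads the ring of MCM2 to MCM7 onto DNA as an inactive double hexamer. Geminin binds CDT1 and blocks further loading once S phase has begun, and CDC45, the GINS complex and MCM10 then help to turn the loaded ring into a moving helicase. Many genes of this pathway are classical targets of E2F transcription factors, which hypophosphorylated Rb holds in check. CDK4/6 inhibitors keep Rb in that state.

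Because E2F control of these genes is read at their promoters, the promoter windows were searched for E2F-type motifs. RefSeq promoter windows (GRCh38.p14, 250 bases before the start site and 50 bases from it on) were matched for 8 of the 10 genes, without MCM4 and MCM5. Windows were searched on both strands for the E2F-type letters TTTCCCGC, TTTCGCGC, TTTGCCGC and TTTGGCGC, the CHR letters TTTGAA and the CCAAT box, and overlapping matches were each counted. An E2F-type match lay in a window of 7 of the 8 genes, against 3.97% of the 27167 genes with a window. A CCAAT box lay in 6 of the 8, against 39.8% of all, and the CHR letters in 0 of the 8, against 18.2% of all. MCM10 was the gene without an E2F-type match. When a final G was also allowed in place of the last C, a form added after the windows were seen, all 8 genes had a match, against 7.39% of all genes. MCM10 gained its match, TTTGGCGG, by that choice of letters. The 8 of 8 follows from the choice, so the wider form is given as a description only. A match is a stretch of letters, and binding at it was not analysed here.

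The stretches below run from 180 bases before the start site to 20 bases into the transcript, 5′ to 3′ on the gene's strand, with E2F-type and CCAAT matches in capitals. MCM10, GMNN and CDT1 are shown because their RNA fell most, MCM6 because its window held more E2F-type matches than that of any other member matched (4, in overlapping pairs on opposite strands), and CDC6 and MCM3 because their RNA did not pass the test. The stretches lie at chr10:13161378-13161577 (plus strand) for MCM10, chr6:24775233-24775432 (plus) for GMNN, chr16:88803609-88803808 (plus) for CDT1, chr2:135876424-135876623 (minus) for MCM6, chr17:40287699-40287898 (plus) for CDC6 and chr6:52284723-52284922 (minus) for MCM3. For GMNN the second of its windows in the table is shown, since its first held no match.
MCM10: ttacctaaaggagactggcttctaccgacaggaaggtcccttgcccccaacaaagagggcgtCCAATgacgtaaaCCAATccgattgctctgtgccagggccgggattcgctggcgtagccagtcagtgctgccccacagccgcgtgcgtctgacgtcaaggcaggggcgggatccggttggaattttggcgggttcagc
GMNN: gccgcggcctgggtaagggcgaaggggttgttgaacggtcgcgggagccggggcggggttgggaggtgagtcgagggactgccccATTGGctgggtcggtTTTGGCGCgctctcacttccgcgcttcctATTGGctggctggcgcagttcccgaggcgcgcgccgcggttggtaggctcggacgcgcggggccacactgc
CDT1: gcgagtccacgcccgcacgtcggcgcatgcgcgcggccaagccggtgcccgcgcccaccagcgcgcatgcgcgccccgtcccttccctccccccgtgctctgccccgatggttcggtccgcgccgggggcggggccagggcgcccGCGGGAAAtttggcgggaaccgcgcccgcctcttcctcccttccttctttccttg
MCM6: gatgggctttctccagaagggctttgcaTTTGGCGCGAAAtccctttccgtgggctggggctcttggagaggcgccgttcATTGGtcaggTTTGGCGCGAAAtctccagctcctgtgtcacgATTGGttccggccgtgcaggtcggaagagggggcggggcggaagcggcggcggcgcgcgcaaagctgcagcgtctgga
CDC6: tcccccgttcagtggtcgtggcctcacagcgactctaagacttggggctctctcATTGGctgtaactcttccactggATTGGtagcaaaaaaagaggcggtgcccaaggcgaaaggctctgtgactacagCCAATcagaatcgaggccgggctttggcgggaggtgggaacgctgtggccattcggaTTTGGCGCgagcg
MCM3: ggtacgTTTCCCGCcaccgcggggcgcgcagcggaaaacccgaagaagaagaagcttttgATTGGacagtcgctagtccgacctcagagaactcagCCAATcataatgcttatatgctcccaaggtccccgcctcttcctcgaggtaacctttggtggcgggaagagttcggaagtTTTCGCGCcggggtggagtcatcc

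The libraries were of similar depth, with 3317860 to 4013156 counts on genes. Reads of the 3′ mRNA kit come from transcript ends, which makes counts independent of gene length, and levels are given as CPM (counts per 1000000 counts of a library, scaled by TMM). A gene at 0 could hold up to 3 counts, equal to 0.740 to 0.909 CPM by library, and this limit covers counting error only. The first principal component, with 60.2% of the variance, separated the treatment groups, and no library stood apart from its group along it. Along the second, with 11.8%, the abemaciclib libraries spread from −27.7 (replicate 1) to 27.3 (replicate 3). The DMSO libraries spread from −16.3 (replicate 3) to 11.3 (replicate 1) along it. All 7 luminal markers checked (ESR1, GATA3, FOXA1, KRT8, KRT18, KRT19 and EPCAM) had at least 373 counts in every library, and their summed level was 6661 to 7275 CPM with DMSO and 7563 to 8640 CPM with abemaciclib. Of these 7, ESR1 and KRT19 were higher with abemaciclib (log2 fold change 0.83, adjusted P = 2.92e-07, and 0.45, adjusted P = 0.000207), KRT18 was lower (−0.34, adjusted P = 0.00515) and 4 did not pass the test. The 3 basal markers were at 0 in every library. Of the 5 fibroblast markers 3 were at 0 throughout, and their summed level, almost all from COL1A1, was 10.4 to 15.8 CPM with DMSO and 10.1 to 15.4 CPM with abemaciclib. Of the 4 leukocyte markers 3 were at 0 and 1 had a single count, and of the 3 endothelial markers 2 were at 0 and the third had at most 5 counts.

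After 4 days of abemaciclib, 8 of the 10 genes passed an adjusted P of 0.05 as lower and 0 as higher in edgeR's quasi-likelihood test (none was higher by DESeq2 or at an unadjusted P under 0.05). Among all 10863 genes tested, 13.3% were lower and 12.5% higher. The 10 had a median log2 fold change of −1.03, against −0.0018 over all genes tested, and single genes ranged from −3.21 for MCM10 to −0.20 for MCM3. MCM3 and CDC6 did not pass the test. Every abemaciclib library lay below every DMSO library in CPM for 9 of the 10 genes, all but MCM3, against 20.1% of all genes tested. Bulk RNA cannot tell apart a smaller share of cells in S phase from less RNA in each cell.

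**Figure D1:**
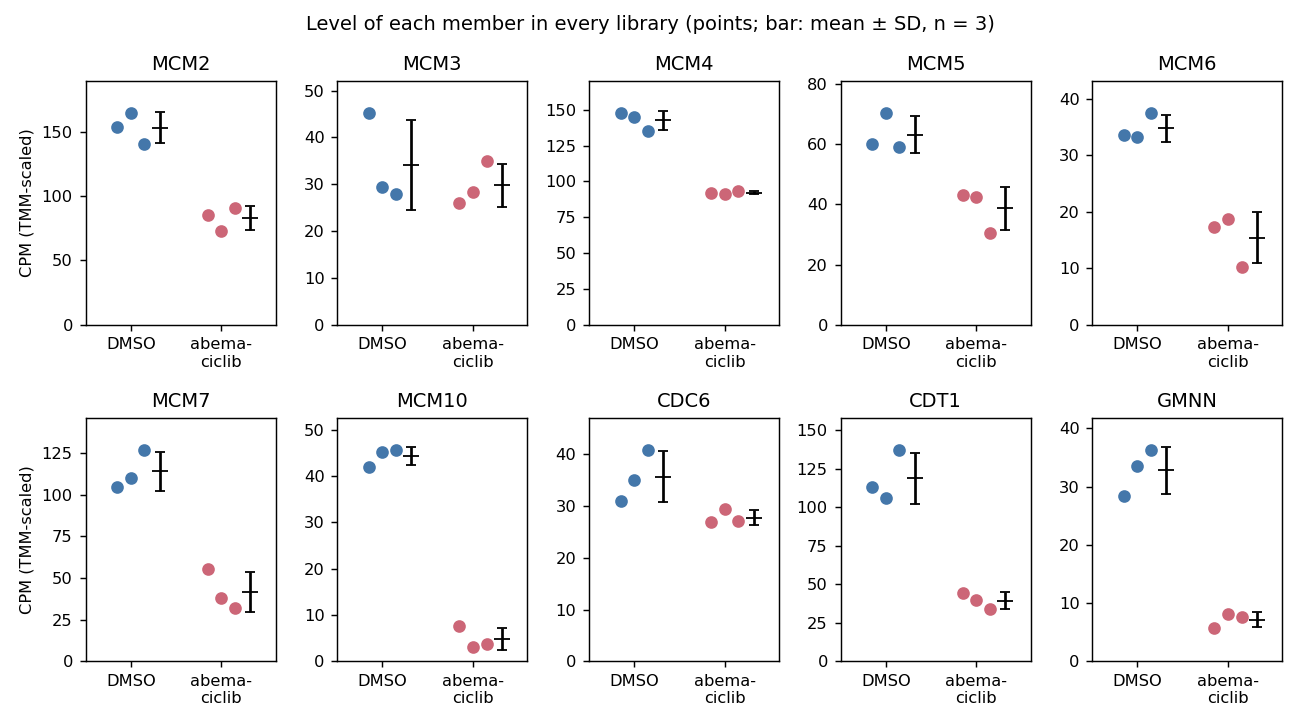
TMM-scaled CPM (vertical axis, from 0, a different scale in each panel) of each of the 10 genes in the 3 DMSO libraries (blue points) and 3 abemaciclib libraries (red points), with the mean and SD (n = 3) as black bars. The groups stand apart in every panel but that of MCM3, and the gap is widest, relative to level, for MCM10 (44.3 against 4.85 CPM on average).

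The helicase subunits were taken first. MCM2, which carries a histone-binding tail (chromosome 3, 127598410 to 127622436, GRCh38, as for all positions of genes), had the highest mean of the subunits with DMSO, at 153.7, 164.9 and 140.8 CPM. With abemaciclib it stood at 85.0, 72.8 and 90.8 CPM, so that the groups lay well apart. Its log2 fold change was −0.89 with a standard error of 0.12 (adjusted P = 1.24e-06). A long non-coding RNA gene known by its identifier ENSG00000285600 overlaps the 3′ end of MCM2 on the opposite strand and had 0 counts in every library.

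MCM4 (chromosome 8, 47960185 to 47978160) overlapped MCM2 in level with DMSO, at 147.9, 145.0 and 135.1 CPM. The 3 abemaciclib libraries were almost identical, at 92.3, 91.0 and 93.5 CPM. The log2 fold change was −0.63 with a standard error of 0.11 (adjusted P = 7.93e-05), the smallest of the subunits that passed the test.

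MCM5 (chromosome 22, 35400134 to 35425431), which with MCM2 forms the gate through which DNA enters the ring, stood at 60.0, 70.4 and 59.1 CPM with DMSO and at 43.0, 42.4 and 30.5 CPM with abemaciclib. Its log2 fold change was −0.71 with a standard error of 0.16 (adjusted P = 0.00134). The third abemaciclib library was lower than the other two, and the groups did not overlap.

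MCM6 (chromosome 2, 135839626 to 135876443) was among the scarcer subunits, at 33.6, 33.3 and 37.6 CPM with DMSO. It fell to 17.2, 18.8 and 10.3 CPM with abemaciclib, again with the lowest value in the third library. The log2 fold change was −1.17 with a standard error of 0.22 (adjusted P = 0.000179).

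MCM7 (chromosome 7, 100092233 to 100101940) had the largest fall of the ring, from 105.0, 109.9 and 127.2 CPM to 55.4, 38.0 and 31.9 CPM. Its log2 fold change was −1.46 with a standard error of 0.16 (adjusted P = 3.28e-08), so that 36.6% of the DMSO level was left on average. Its 3′ end lies 45 bases from that of COPS6 on the opposite strand, and whether counting used strand is not stated in the sources used here. COPS6 had 88.2 ± 9.08 CPM with DMSO and 69.8 ± 5.97 CPM with abemaciclib (SD, n = 3 in each group; log2 fold change −0.34, adjusted P = 0.0558), and its part in the MCM7 counts was not tested.

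MCM3 (chromosome 6, 52264014 to 52284881) was the one subunit whose groups overlapped, with 45.2, 29.4 and 27.9 CPM with DMSO and 26.0, 28.4 and 34.9 CPM with abemaciclib. Its log2 fold change was −0.20 with a standard error of 0.20 (adjusted P = 0.521). The first DMSO library was far above the other two, and without it the log2 fold change of MCM3 was 0.05 (adjusted P = 0.907). The MCM3 window printed above held an E2F-type match across the start site and another upstream.

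Summed over MCM2 to MCM7, the subunits held 545.6, 552.8 and 527.6 CPM with DMSO and 318.9, 291.4 and 291.8 CPM with abemaciclib. The abemaciclib mean was 55.5% of the DMSO mean, a log2 ratio of −0.85, and the groups stood apart (two-sided exact permutation test, P = 0.1, the lowest value that 3 libraries against 3 allow). Within the sum, MCM7 gave 21.1 ± 2.64% of the counts with DMSO and 13.8 ± 3.28% with abemaciclib (SD, n = 3), with no overlap between the groups. The share of MCM4 moved the other way, from 26.3 ± 0.759% to 30.7 ± 1.61% (SD, n = 3), also without overlap. Shares are parts of one sum, so a lower share of MCM7 by itself raises the others, and MCM4 RNA itself fell (log2 fold change −0.63). The count ratios of MCM4 to MCM2, MCM6 and MCM7 did not overlap between the groups, and those to MCM3 and MCM5 did. MCM2 kept a share of 28.2 ± 1.57% against 27.6 ± 3.17%, and the direction of that small difference turned without DMSO replicate 2 or abemaciclib replicate 2. The shares of MCM3, MCM5 and MCM6 overlapped between the groups, with means of 6.30% and 9.95% for MCM3, 11.6% and 12.8% for MCM5, and 6.43% and 5.12% for MCM6 with DMSO and abemaciclib. Over the 6 shares and 3 further ratios tested, the smallest exact permutation P was 0.1 and the smallest adjusted P was 0.18, so a difference in composition could not pass a threshold of 0.05 with these group sizes.

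**Figure D2:**
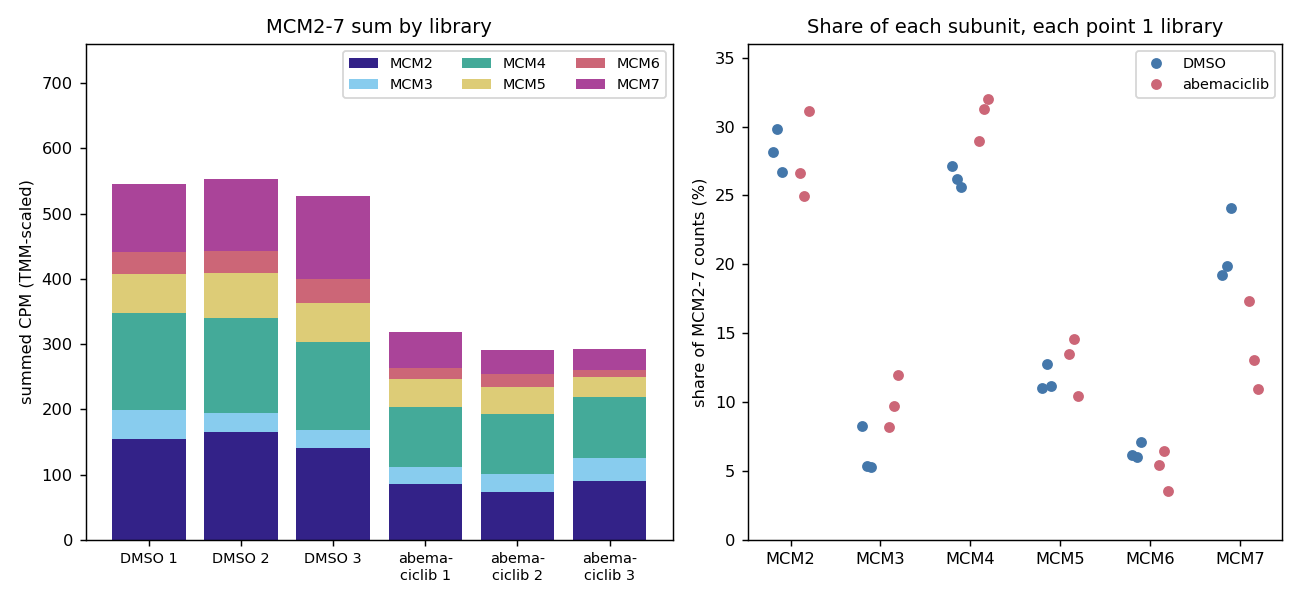
Left, TMM-scaled CPM of the 6 helicase subunits stacked for each library (bars from 0). Right, the share of each subunit in the summed MCM2 to MCM7 counts in percent, with DMSO in blue and abemaciclib in red and 1 point for each library. The summed level falls from 527.6 to 552.8 CPM with DMSO to 291.4 to 318.9 CPM with abemaciclib, and the shares of MCM7 (lower) and MCM4 (higher) are the ones that do not overlap.

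Of the loaders, CDT1 passed the test and CDC6 did not. CDT1 (chromosome 16, 88803789 to 88809258), which carries the MCM ring to the origin and is degraded in S phase, stood at 113.1, 106.0 and 137.5 CPM with DMSO. With abemaciclib it stood at 44.5, 40.0 and 34.0 CPM, about a 3.01-fold difference between the means. The log2 fold change was −1.59 with a standard error of 0.14 (adjusted P = 7.19e-10). The neighbouring gene APRT ends 80 bases away on the opposite strand, with 212.0 ± 21.7 CPM with DMSO and 191.4 ± 20.8 CPM with abemaciclib (SD, n = 3 in each group; log2 fold change −0.15, adjusted P = 0.351).

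CDC6 (chromosome 17, 40287879 to 40304657), the ATPase that joins the origin recognition complex before the helicase is loaded, had 31.0, 35.1 and 40.9 CPM with DMSO and 26.9, 29.4 and 27.0 CPM with abemaciclib. All abemaciclib libraries lay below all DMSO libraries, but the gap was small beside the spread of the DMSO group. Its log2 fold change of −0.36 did not pass the test (standard error 0.18, adjusted P = 0.158). The log2 ratio of CDC6 to CDT1 counts was −1.74 ± 0.135 with DMSO and −0.50 ± 0.201 with abemaciclib (SD, n = 3; exact permutation test, P = 0.1, adjusted P = 0.18), which is 0.300 and 0.707 CDC6 counts for each count of CDT1.

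Geminin, the inhibitor of CDT1, had a larger estimated fall than CDT1 itself. GMNN (chromosome 6, 24774931 to 24786099) stood at 28.4, 33.6 and 36.3 CPM with DMSO and at 5.75, 8.14 and 7.57 CPM with abemaciclib, so that 21.8% of its level was left. The log2 fold change was −2.18 with a standard error of 0.24 (adjusted P = 5.28e-08). There were 3.62 CDT1 counts for each GMNN count with DMSO and 5.55 with abemaciclib, as geometric means. The log2 ratio was 1.86 ± 0.175 and 2.47 ± 0.420 (SD, n = 3), and the groups did not overlap (exact permutation test, P = 0.1, adjusted P = 0.18). Among all pairs of genes tested with a count in every library, 38.0% also had ratios that did not overlap. The difference in the CDT1 to GMNN log2 ratio was 0.62, and without abemaciclib replicate 1, which had 19 counts of GMNN, it was 0.38.

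MCM10, which binds the loaded helicase late and is needed for it to start unwinding, had the largest fall of the 10. On chromosome 10 from 13161558 to 13211110, it held 145, 152 and 151 counts with DMSO and 25, 13 and 14 counts with abemaciclib. In CPM these were 42.1, 45.2 and 45.7 against 7.56, 3.21 and 3.78, a 9.13-fold difference between the means. The log2 fold change was −3.21 with a standard error of 0.26 (adjusted P = 9.64e-11), and 77 of the 10863 genes tested had a lower one. Relative to the MCM2 to MCM7 sum, the log2 ratio of MCM10 counts fell by 2.44, from −3.61 ± 0.0846 to −6.06 ± 0.583 (SD, n = 3; exact permutation test, P = 0.1, adjusted P = 0.18). The first abemaciclib library had the highest MCM10 level of its group.

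Ordered by log2 fold change, the 10 genes ran MCM10, GMNN, CDT1, MCM7, MCM6, MCM2, MCM5, MCM4, CDC6 and MCM3. For each pair, the log2 ratio of their counts was compared between the groups, as a description. The order was set by the same 6 libraries, so small differences between neighbours and larger ones between distant genes follow from it. Of the 9 neighbouring pairs, GMNN and CDT1 had ratios that did not overlap between the groups, and the ratios of the other 8 overlapped. For MCM10 and GMNN the ratios overlapped although their means differed by −1.09, with 25 counts of MCM10 and 19 of GMNN in abemaciclib replicate 1. Of all 45 pairs, 33 did not overlap, against 38.0% of the 58163505 pairs of genes with a count in every library, and of the 15 pairs within MCM2 to MCM7, 9 did not. MCM7 stood below MCM2, MCM5, MCM4 and MCM3 in this sense, with differences in log2 ratio from −0.59 to −1.31. These pairs share genes and are not independent of each other.

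**Figure D3:**
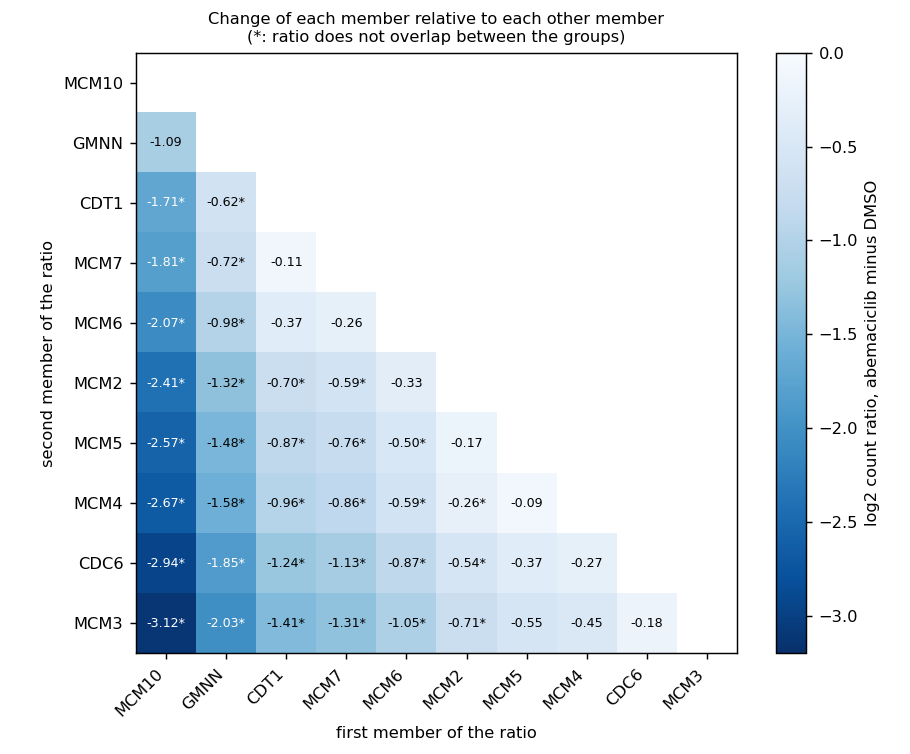
Difference between abemaciclib and DMSO in the mean log2 count ratio of each pair of the 10 genes, first gene along the horizontal axis and second along the vertical, both in order of fold change. Darker cells are larger falls of the first gene relative to the second, and a star marks ratios that do not overlap between the groups. MCM10 stands apart from 8 of the other 9 genes, with the largest difference, −3.12, against MCM3.

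The rest of the pathway was described by 4 further lists of genes. Their counts stand beside 13.3% lower and 12.5% higher among all 10863 genes tested. The 7 origin recognition genes (ORC1 to ORC6 and LRWD1), which mark the origins before licensing, had a median log2 fold change of 0.14. None passed the test in either direction (edgeR; 0 at an unadjusted P under 0.05, and 0 with DESeq2). The farthest from 0 was ORC1 at −1.08 (standard error 0.57, adjusted P = 0.176), a gene with 5 to 28 counts per library. Without abemaciclib replicate 1, ORC1 passed, at −1.93 (adjusted P = 0.0417). Standard errors in this list ran from 0.23 to 0.57, against 0.11 to 0.26 for the 10 licensing genes.

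Of the 14 helicase activation genes, 13 were tested, 7 were lower and 0 were higher (none by DESeq2 or at an unadjusted P under 0.05). Their median was −0.81. CDC45, which joins the ring to form the moving helicase, had the lowest log2 fold change of this list, −2.77 (standard error 0.29, adjusted P = 1.91e-08), from 27.9 ± 5.98 to 4.02 ± 1.03 CPM (SD, n = 3). TICRR, which helps to recruit CDC45, followed at −2.35 (standard error 0.49, adjusted P = 0.000622), but lost its call with DESeq2 (adjusted P = 0.11) and had 0 counts in abemaciclib replicate 1, a limit of 0.908 CPM. DBF4, the activating subunit of the CDC7 kinase, had the smallest fall among the genes called, −0.62 (standard error 0.13, adjusted P = 0.000456). DONSON stood at −0.95 (adjusted P = 0.0398), and its call was lost with DESeq2 and in 5 of the 6 fits that each left out 1 library, all but the one without abemaciclib replicate 3, where its log2 fold change ranged from −1.01 to −0.84. Of the GINS subunits, GINS1 and GINS2 were lower, at −1.11 (standard error 0.29, adjusted P = 0.00539) and −1.78 (standard error 0.28, adjusted P = 1.86e-05). GINS3, with 7 to 17 counts per library, was at −0.06 (standard error 0.54) and GINS4 at 0.53 (standard error 0.26, adjusted P = 0.138), and differences between subunits were not tested.

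Of 14 genes that act on CDC6, CDT1, geminin or the MCM proteins, or are further MCM relatives, 12 were tested. Of these, 4 were lower and 1 higher (13.3% and 12.5% of all genes tested), with a median of −0.28. CDC20 and CCNF, which direct cell cycle ubiquitin ligases, were lowest, at −2.24 (standard error 0.22, adjusted P = 6.36e-09) and −1.97 (standard error 0.15, adjusted P = 3.06e-11). DTL, the receptor that brings CDT1 to its ligase in S phase, fell from 110.2 ± 8.90 to 33.3 ± 2.14 CPM (SD, n = 3; log2 fold change −1.73, adjusted P = 6.75e-11). DDB1, the adaptor of the same ligase, was the one gene that was higher, at 0.32 (standard error 0.11, adjusted P = 0.0339). The DDB1 call was lost on leaving out DMSO replicate 1 or 2 or abemaciclib replicate 1 or 3 (log2 fold change 0.26 to 0.32). SKP2 stood at −0.54 (adjusted P = 0.0337), and its call was lost with DESeq2 or on leaving out DMSO replicate 1 or 2 or abemaciclib replicate 2 or 3 (−0.52 to −0.41). MCM8 and MCM9, relatives of the ring that act in repair, did not pass the test, at −0.30 and −0.25. GMNC, a relative of geminin, had 0 counts in every library, and MCIDAS had at most 4.

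The 23 replication fork genes gave 14 lower and 0 higher (none higher by DESeq2 or at an unadjusted P under 0.05). Their median was −0.86, beside −1.03 for the 10 licensing genes. CLSPN, a checkpoint mediator that travels with the fork, had the lowest value, −4.01 (standard error 0.23, adjusted P = 4.73e-14), and PRIM1, the primase catalytic subunit, followed at −2.20 (standard error 0.27, adjusted P = 3.7e-07). POLA1 and TIMELESS had the smallest falls among those called, at −0.63 and −0.72. The call of POLE2, with 1 to 22 counts per library, was lost with DESeq2 (adjusted P = 0.0844). It was also lost on leaving out any library but abemaciclib replicate 2. RFC2 lost its call without DMSO replicate 2 and POLD1 without DMSO replicate 3. In the other direction, RFC3 was called lower without abemaciclib replicate 3 and FEN1 without DMSO replicate 3. E2F-type matches lay in the windows of 9 of the 20 fork genes matched, 5 of 10 helicase activation genes, 5 of 14 licensing control genes and 1 of 7 origin recognition genes. The share was 7 of 8 for the licensing genes matched and 3.97% for all genes with a window. A relation between matches and the size of the fall was not tested.

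**Figure D4:**
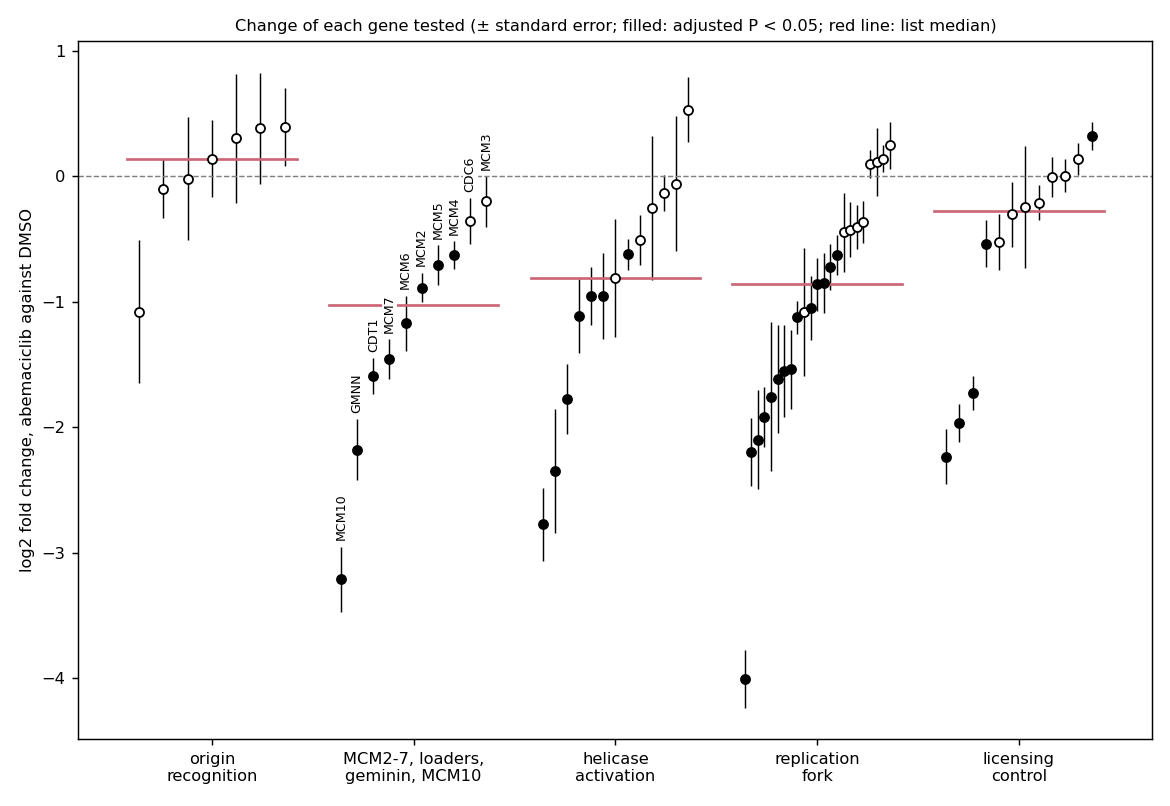
Log2 fold change of each gene tested with abemaciclib against DMSO (points, with the standard error), grouped by role and ordered within each list. Filled points passed the adjusted P threshold of 0.05, open points did not, and the red line is the median of the list. The origin recognition genes are all open, with a median near 0 and standard errors of 0.23 to 0.57. Of the 10 named licensing genes, with standard errors of 0.11 to 0.26, 8 are filled and below 0, from −0.63 to −3.21. With the wider errors, open points of the origin list do not show that those genes were unchanged.

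Outside these lists, the genes whose centred log2 CPM profile over the 6 libraries lay nearest to the mean profile of the 10 were SYTL4, HNRNPD, CPT1A, PTMAP5 and PLEKHA5, at Euclidean distances of 0.157 to 0.219 on the log2 scale. With the libraries in 2 groups, that measure is mostly set by the size of the fall, and their log2 fold changes ran from −1.34 for CPT1A to −1.10 for PTMAP5. PTMAP5 is a processed pseudogene close in sequence to PTMA, so its counts are uncertain.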

How the data were processed

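The 6 libraries (3 DMSO, 3 abemaciclib, all from parental ZR-75-1 RNA) were grouped by their labels. The authors used BBDuk to trim single-end 3′ mRNA reads, STAR 2.7.5b to align them to hg38 and featureCounts 2.0.1 to count them per GENCODE gene. The deposited values are these raw counts. The strand setting and the treatment of multi-mapping reads are not given in the sources used here, and the labels and the paper name different versions of the library kit. Symbols and positions were taken from a GENCODE release newer than the one counted on, for GRCh38 (60401 of 60656 genes had a symbol).

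Genes were filtered with filterByExpr (10863 left), scaled by TMM and tested with edgeR 4.0.16 in R 4.3.3 (glmQLFit, glmQLFTest, Benjamini–Hochberg over all genes tested, threshold 0.05). The standard error is the log2 fold change divided by the square root of F. The test was checked on simulated counts. Alternatives were DESeq2 1.42.0, its size factors, total counts only, other count filters, a replicate block and each library left out. For shares and ratios 1 count was added as an alternative. Profiles used log2 CPM with a prior count of 0.5 and genes with a mean of at least 5 CPM.

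Genes named are all 10 members, the 2 lowest and 2 highest called genes of each list with any called gene against its list's direction, genes within 1000 bases of a member's 3′ end, and the 5 nearest profiles. ORC1, DTL, ESR1, KRT18, KRT19, GINS1 to GINS4, POLA2, POLD1, POLE2, MCM8, MCM9, GMNC and MCIDAS were named after their values were seen. So were RFC2, RFC3 and FEN1. The members and lists were chosen with earlier results of these data known. A protein comparison was planned but not made here.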

Additional observations from a re-analysis of the deposited data

How the results depend on the processing

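Of 345 values recomputed under an alternative, 6 moved, 3 reversed and 336 did neither. Among the 336, fold changes kept direction and call, and counts of called genes stayed within 1.5 times. The MCM2 to MCM7 sum, the shares and the ratios stayed within 1 SD of the replicates, and their permutation tests were not rerun. Single calls within the counts could be lost (helicase activation genes lower were 5 to 7, licensing control genes lower 3 to 4 and replication fork genes lower 10 to 14). Of the 144 that concern the calls and fold changes of the 10 genes, 143 kept direction and call: 8 of 10 were lower under every alternative run, and the exception was MCM3, which was not called in any. Leaving out each library in turn gave it log2 fold changes from −0.33 to 0.053 (without DMSO replicate 1). In the same way, the difference in the share of MCM2 was −2.41 to 0.65 percentage points, the count of origin recognition genes lower was 0 to 1 and that of licensing control genes higher was 0 to 1. The cause was not tested.

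The libraries showed no sign of pairing by replicate number. The deviations of same-numbered libraries from their group means had correlations of −0.14, 0.0034 and −0.20, and no library correlated best with its own number. With 3 libraries in each group, these values cannot show that same-numbered libraries were handled apart. With a replicate block, 1139 genes were higher and 1280 lower, in place of 1354 and 1442, 8 of the 10 members were lower, and 0 licensing control genes were higher in place of 1. It also ended the calls of DONSON and SKP2. With at least 10 counts required in every library, CLSPN, POLA2, POLD1 and POLE2 were not tested, so that 10 replication fork genes were lower in place of 14, and TICRR was not tested either.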
